A study of Caenorhabditis elegans with 9 samples.

Results

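Glutamate is released at synapses of Caenorhabditis elegans and read by ion channel receptors and G protein-coupled receptors on the receiving cells. The genes described here are the vesicular glutamate transporter gene eat-4, the non-NMDA receptor subunit genes glr-1 to glr-5, the NMDA receptor subunit genes nmr-1 and nmr-2, and the metabotropic receptor genes mgl-1 and mgl-2. They were chosen by symbol, and each of the 10 symbols matched a single identifier among the 46926 genes counted. Their counts came from 9 poly(A)-selected libraries of whole young adult worms grown as synchronized populations, with 3 libraries for each genotype label: WT, UNC5 and PATR1. The design describes a wild type and an unc-5(Cys348*) strain, compared for differences in RNA level, with an interest in neuronal genes. Neither mutant label is tied to that stop allele by name, and the genotype behind PATR1 is not spelled out. UNC5 and PATR1 were therefore each set against WT, then against one another. unc-5 encodes a netrin receptor that guides migrating axons.

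EAT-4 loads glutamate into synaptic vesicles, and its gene marks the neurons that use glutamate as a transmitter. GLR-1 and GLR-2 are AMPA-type subunits that work together in the command interneurons that drive forward and backward movement. NMR-1 and NMR-2 are the GluN1-type and GluN2-type subunits of the worm's NMDA receptor, a class of channel built from both kinds of subunit. MGL-1 and MGL-2 signal through G proteins and act more slowly than the channels.

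The libraries held 38673206 to 60642199 reads counted to genes, and the members had 16 to 881 counts per library, so the rarest of them carry the widest intervals. All 10 members had enough counts to be tested. unc-5 itself stood at 16.7 to 18.4 CPM in WT, 9.88 to 10.3 CPM in UNC5 and 12.75 to 13.8 CPM in PATR1, where CPM is the count of a gene divided by the scaled library size in units of 1e+06 reads. patr-1 stood at 225.7 to 235.3 CPM in WT, 292 to 310 CPM in UNC5 and 288 to 298 CPM in PATR1, higher than WT in both mutant groups (log2 fold change 0.38 ± 0.032 and 0.34 ± 0.032), so its level does not set PATR1 apart from UNC5. The unmapped share of reads was 0.621% to 0.937% in WT and UNC5 libraries and 2.86% to 6.02% in PATR1 libraries. Every marker list of another tissue (germline, sperm, body wall and pharyngeal muscle, intestine, hypodermis and glia) was detected, and no listed gene was at 0 in all libraries. Separate cultures are not stated for the replicates, and a p-value then reflects no more than how far these libraries scatter, possibly for technical reasons alone. With whole worms, fewer cells of a type and less RNA per cell cannot be told apart.

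In WT the most abundant of these RNAs per length were mgl-2 and eat-4, and the rarest were nmr-1 and glr-3. On the scale of CPM per kilobase of exon, the mean level in WT was 3.77 for mgl-2, 3.57 for eat-4, 3.05 for glr-5 and 2.78 for glr-4. It was lower for glr-1 (1.45), glr-2 (1.13) and mgl-1 (0.953), and lowest for nmr-2 (0.561), nmr-1 (0.367) and glr-3 (0.322). The ranges of mgl-2 and eat-4 over the 3 WT libraries overlapped, and no other neighbours in this order did. Because 554 of the 3716 exon bases of mgl-2 are shared with maf-1 on the same strand, where reads are counted for neither gene, its level is understated. In UNC5 glr-4 stood first (3.33), its range overlapping that of eat-4 (3.24), which in turn overlapped that of glr-5 (2.95). glr-2 (1.159) and glr-1 (1.148) also overlapped in UNC5, and nmr-1 (0.538) stood above nmr-2 (0.369) without overlap, the reverse of WT. In PATR1 mgl-2 (2.64), glr-4 (2.62), eat-4 (2.55) and glr-5 (2.25) overlapped as neighbours, as did glr-1 (0.872) with glr-2 (0.856) and nmr-1 (0.387) with nmr-2 (0.351).

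**Figure D1:**
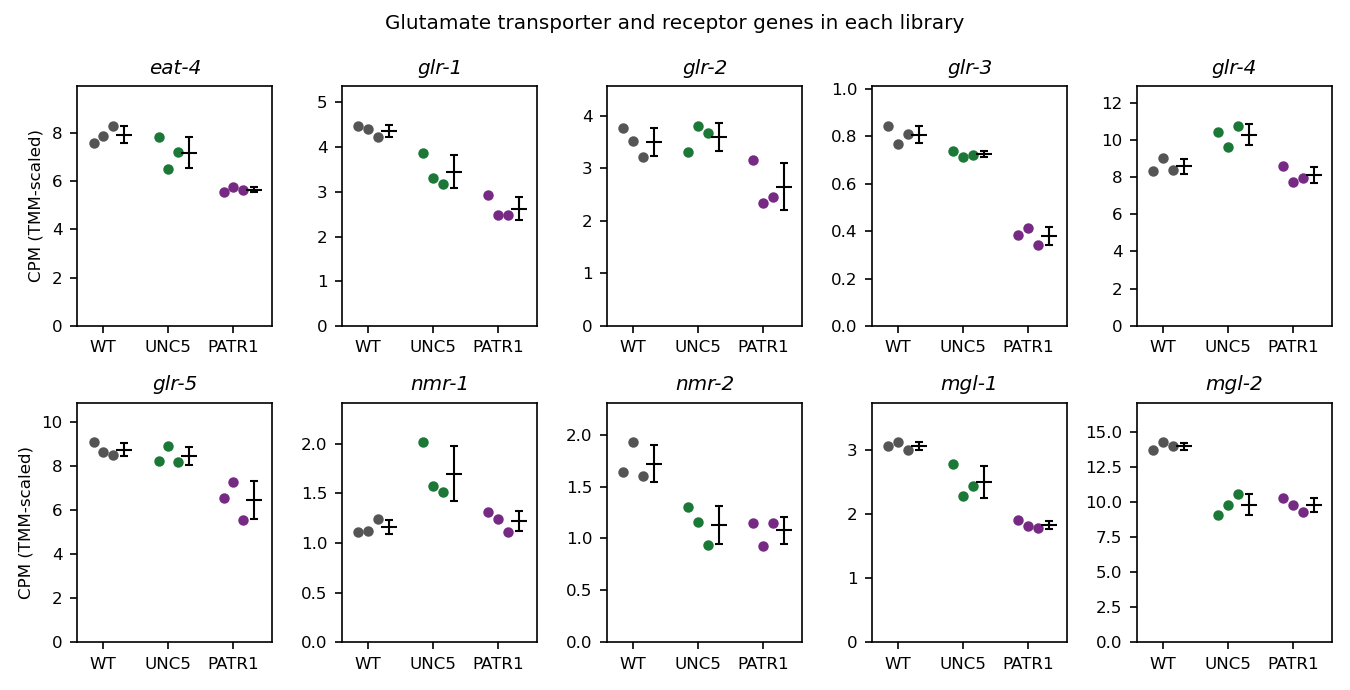
Level of each of the 10 genes in CPM (linear axis from 0) in the 3 libraries of WT, UNC5 and PATR1, as dots, with the mean and SD of the group beside them. The 3 PATR1 libraries lie below all 3 WT libraries for every gene but glr-4 and nmr-1, and in UNC5 nmr-1 and glr-4 lie above WT while glr-1, glr-3, nmr-2, mgl-1 and mgl-2 lie below.

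In UNC5, 2 of the 10 members rose against WT, 4 fell and 4 did not pass an adjusted p below 0.05. Of all 17512 genes tested, 49.8% rose and 27% fell, 76.8% in all. The median log2 fold change was -0.15 for the members and 0.16 for all genes. No member passed 2-fold as well, by edgeR or by DESeq2 and with or without adjustment of the p-value, where 20.8% of all genes did by edgeR, 7.09% upward and 13.7% downward. The libraries of UNC5 and WT did not overlap for 7 members, 2 above and 5 below, beside 77.9% of all genes, 50.4% above and 27.5% below. The split over all genes moved with the processing: 8727 genes rose and 4728 fell with TMM factors. Relative log expression factors gave 7072 and 5722, and scaling to pan-neuronal counts gave 6260 and 6195. Without the low-count filter 6115 rose and 6717 fell, and with only the 6 libraries compared 6222 rose and 6279 fell. Under each of these last 3 settings 6 members fell and 1 rose.

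In PATR1, 8 of the 10 members fell against WT, none rose and 2 did not pass. Among all genes 44.9% fell and 38.7% rose, 83.6% in all. The median was -0.50 for the members and -0.11 for all genes. DESeq2 gave the same counts of 0 and 8, as did unadjusted p-values below 0.05 in either tool. glr-3 was the 1 member to pass 2-fold, where 16.5% of all genes did, 6.02% upward and 10.5% downward. The libraries did not overlap for 8 members, all below WT, beside 84% of all genes, 38.8% above and 45.2% below. With libraries scaled to pan-neuronal counts the split over all genes turned from 6780 higher and 7860 lower to 8431 and 5444. The 4 members lower in both mutant groups were glr-1, nmr-2, mgl-1 and mgl-2, and both comparisons share the WT libraries. Of all genes, 27% fell in UNC5 and 44.9% in PATR1, and the share that fell in both was not counted.

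**Figure D2:**
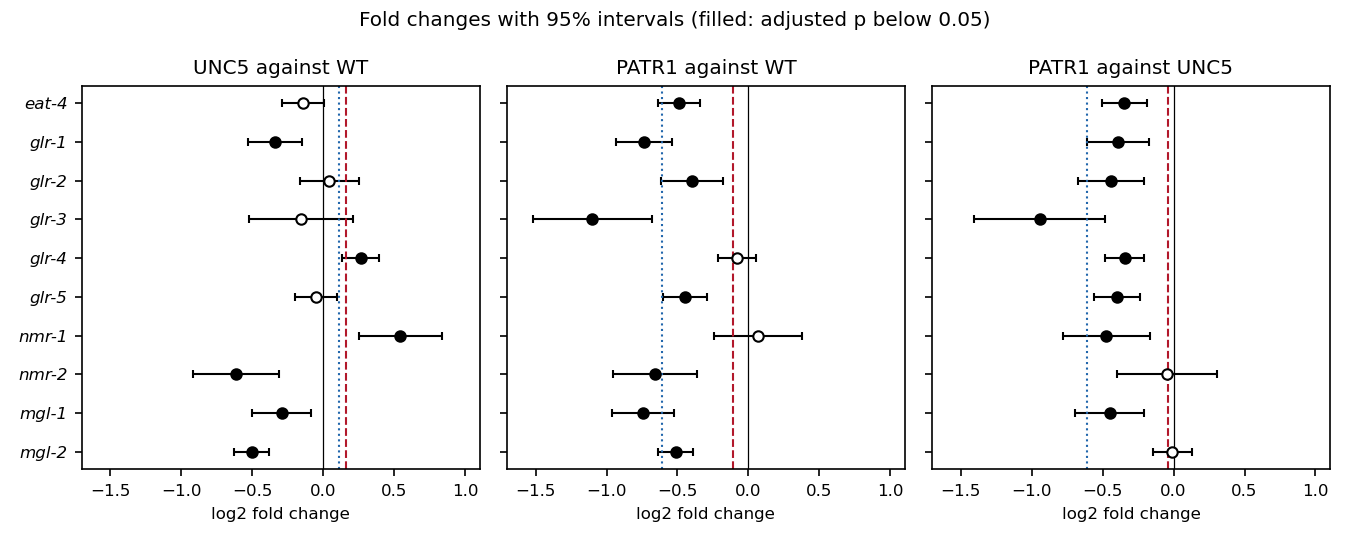
Log2 fold change of each gene with its 95% interval in the 3 comparisons, filled where the adjusted p was below 0.05 and open where it was not. The dashed line is the median of all 17512 genes (0.16, -0.11 and -0.04) and the dotted line the median of 22 pan-neuronal genes (0.11, -0.61 and -0.61).

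eat-4 (WBGene00001135, chromosome III, 9136887 to 9141827 in WBcel235, plus strand) was lower in PATR1 than in WT, and in UNC5 the call depended on the processing. It measured 7.60, 7.88 and 8.28 CPM in WT, 7.82, 6.51 and 7.20 CPM in UNC5, and 5.56, 5.75 and 5.63 CPM in PATR1. The PATR1 libraries stood below all others, and UNC5 replicate 1 lay within the WT range. In PATR1 eat-4 stood at 71.3% of the WT mean (log2 fold change -0.49 ± 0.073 SE, adjusted p = 3.37e-07). For UNC5 the value was -0.14 (95% interval -0.29 to 0.0013, adjusted p = 0.0665). eat-4 was called lower in UNC5 with relative log expression factors (-0.25, adjusted p = 0.00262) and by DESeq2 (-0.25, adjusted p = 0.012). It was also called without WT replicate 1 (-0.18, adjusted p = 0.039) and without UNC5 replicate 1 (-0.21, adjusted p = 0.0202). Library sizes alone (adjusted p = 0.0152) and scaling to pan-neuronal counts (0.000816) gave the same call. So did no low-count filter (0.000114), the filter at 5 CPM (0.0103) and only the 6 libraries compared (0.001). The call was absent with unstranded counts (0.0544), with the replicate block (0.0708) and without any other single library. PATR1 lay below UNC5 (-0.35 ± 0.079, adjusted p = 0.000201), a call that ended and turned in sign when libraries were scaled to pan-neuronal counts (0.076, adjusted p = 0.399).

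Of the AMPA-type subunits, glr-1 fell in both mutant groups and glr-2 in PATR1. glr-1 (WBGene00001612, chromosome III, 8584163 to 8588642, minus strand) measured 4.47, 4.40 and 4.22 CPM in WT, 3.87, 3.32 and 3.17 CPM in UNC5, and 2.92, 2.47 and 2.47 CPM in PATR1. The groups formed 3 steps with no overlap. The log2 fold change was -0.34 ± 0.093 in UNC5 (adjusted p = 0.00145) and -0.74 ± 0.097 in PATR1 (adjusted p = 3.19e-08), and PATR1 was lower than UNC5 (-0.39 ± 0.11, adjusted p = 0.00149). That last call ended without the low-count filter (-0.24, adjusted p = 0.0588), and scaled to pan-neuronal counts the difference was 0.0282 (adjusted p = 0.827).

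glr-2 (WBGene00001613, chromosome III, 7138640 to 7144959, minus strand) measured 3.76, 3.53 and 3.22 CPM in WT, 3.31, 3.81 and 3.68 CPM in UNC5, and 3.17, 2.35 and 2.46 CPM in PATR1. UNC5 and WT overlapped, and PATR1 replicate 1 lay just under the lowest WT library. The value for UNC5 against WT was 0.04 (95% interval -0.17 to 0.25, adjusted p = 0.722), and its sign turned under several scalings. In PATR1 glr-2 fell to 75.8% of WT (-0.40 ± 0.11, adjusted p = 0.00112) and was lower than in UNC5 (-0.44 ± 0.11, adjusted p = 0.000826). Scaled to pan-neuronal counts, PATR1 passed neither against WT (-0.12, adjusted p = 0.307) nor against UNC5 (-0.0177, adjusted p = 0.896).

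The remaining non-NMDA subunit genes parted from each other. glr-3 (WBGene00001614, chromosome I, 7117808 to 7121545, plus strand), whose product also serves as a cold receptor in a sensory neuron, was the scarcest member. It measured 0.844, 0.770 and 0.809 CPM in WT, 0.738, 0.713 and 0.722 CPM in UNC5, and 0.385, 0.412 and 0.340 CPM in PATR1. These values rest on 16 to 51 counts in a library. PATR1 stood far below the other groups, at 46.9% of WT (-1.10 ± 0.21, adjusted p = 1.34e-05) and 52.3% of UNC5 (-0.94 ± 0.23, adjusted p = 0.000381). In UNC5 all libraries were below WT, yet the value of -0.16 did not pass (95% interval -0.52 to 0.21, adjusted p = 0.454).

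glr-4 (WBGene00001615, chromosome II, 7785100 to 7794322, minus strand) measured 8.31, 9.02 and 8.39 CPM in WT, 10.4, 9.63 and 10.7 CPM in UNC5, and 8.57, 7.73 and 7.97 CPM in PATR1. UNC5 was the high group, above all WT and PATR1 libraries. It rose by a log2 fold change of 0.26 ± 0.065 (adjusted p = 0.000528). The call ended by DESeq2 (0.16, adjusted p = 0.0731), with only the 6 libraries compared (0.11, adjusted p = 0.127), without the low-count filter (0.095, adjusted p = 0.277) and when scaled to pan-neuronal counts (0.12, adjusted p = 0.115). PATR1 and WT overlapped (-0.08, 95% interval -0.22 to 0.054, adjusted p = 0.253), and PATR1 was lower than UNC5 (-0.34 ± 0.068, adjusted p = 3.52e-05) except when scaled to pan-neuronal counts (0.0773, adjusted p = 0.315). PATR1 was called lower than WT with library sizes alone (-0.20, adjusted p = 0.00605) and with the filter at 5 CPM (-0.19, adjusted p = 0.00853). It was called higher than WT when scaled to pan-neuronal counts (0.19, adjusted p = 0.0105), so the direction of this difference depends on the scaling.

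glr-5 (WBGene00001616, chromosome V, 8716495 to 8720516, plus strand) measured 9.08, 8.65 and 8.52 CPM in WT, 8.22, 8.92 and 8.21 CPM in UNC5, and 6.56, 7.27 and 5.57 CPM in PATR1. WT and UNC5 overlapped and PATR1 was lower than either. Against WT it fell in PATR1 (-0.45 ± 0.076, adjusted p = 2.65e-06), and the UNC5 value was -0.05 (95% interval -0.20 to 0.099, adjusted p = 0.537). Between the mutant groups it was lower in PATR1 (-0.40 ± 0.080, adjusted p = 4.36e-05), but not when scaled to pan-neuronal counts (0.0237, adjusted p = 0.805). With only the 6 libraries compared, UNC5 was called lower than WT (-0.20, adjusted p = 0.00862), as it was without the low-count filter (-0.22, adjusted p = 0.00568) and when scaled to pan-neuronal counts (-0.20, adjusted p = 0.0217).

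The NMDA receptor subunit genes moved in opposite directions in UNC5. nmr-1 (WBGene00003774, chromosome II, 5440238 to 5446606, minus strand) measured 1.11, 1.12 and 1.24 CPM in WT, 2.01, 1.57 and 1.51 CPM in UNC5, and 1.31, 1.24 and 1.11 CPM in PATR1. These values rest on 48 to 79 counts in a library. UNC5 was above every other library. It stood at 147% of WT (0.54 ± 0.14, adjusted p = 0.00105) and was the largest rise among the members. PATR1 overlapped with WT (0.07, 95% interval -0.24 to 0.38, adjusted p = 0.681) and was lower than UNC5 (-0.47 ± 0.15, adjusted p = 0.00522). The last difference rested on UNC5 replicate 1, the highest library, and did not pass without it (-0.34, adjusted p = 0.062), nor by DESeq2 (-0.43, adjusted p = 0.0509) or without the low-count filter (-0.32, adjusted p = 0.0771). Scaled to pan-neuronal counts it was -0.0533 (adjusted p = 0.763).

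nmr-2 (WBGene00003775, chromosome V, 15006341 to 15011660, minus strand) measured 1.64, 1.92 and 1.602 CPM in WT, 1.30, 1.16 and 0.941 CPM in UNC5, and 1.154, 0.928 and 1.152 CPM in PATR1. These values rest on 36 to 115 counts in a library. WT was the high group and the mutant groups overlapped. The fall was -0.61 ± 0.15 in UNC5 (adjusted p = 0.000407) and -0.66 ± 0.15 in PATR1 (adjusted p = 0.000127), and the value between the mutant groups was -0.05 (95% interval -0.40 to 0.30, adjusted p = 0.815). The opposite moves of nmr-1 and nmr-2 in UNC5 kept their directions and calls under every alternative in which both were tested.

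A ratio within a library does not depend on how libraries are scaled. The ratio of nmr-1 to nmr-2, in CPM per kilobase of exon, was 0.661, 0.566 and 0.751 in WT, 1.51, 1.32 and 1.56 in UNC5, and 1.11, 1.30 and 0.940 in PATR1. nmr-2 was the more abundant RNA in every WT library and nmr-1 in every UNC5 library, and no group overlapped with another. The ratio of glr-1 to glr-2 was 1.23, 1.29 and 1.35 in WT, 1.21, 0.898 and 0.890 in UNC5, and 0.951, 1.09 and 1.04 in PATR1. All mutant libraries lay below WT, UNC5 replicate 1 the closest to it. The ratio of mgl-1 to mgl-2 was 0.258, 0.253 and 0.249 in WT, 0.353, 0.270 and 0.266 in UNC5, and 0.214, 0.213 and 0.221 in PATR1. These ratios were chosen after the values were seen and are given without a test.

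**Figure D3:**
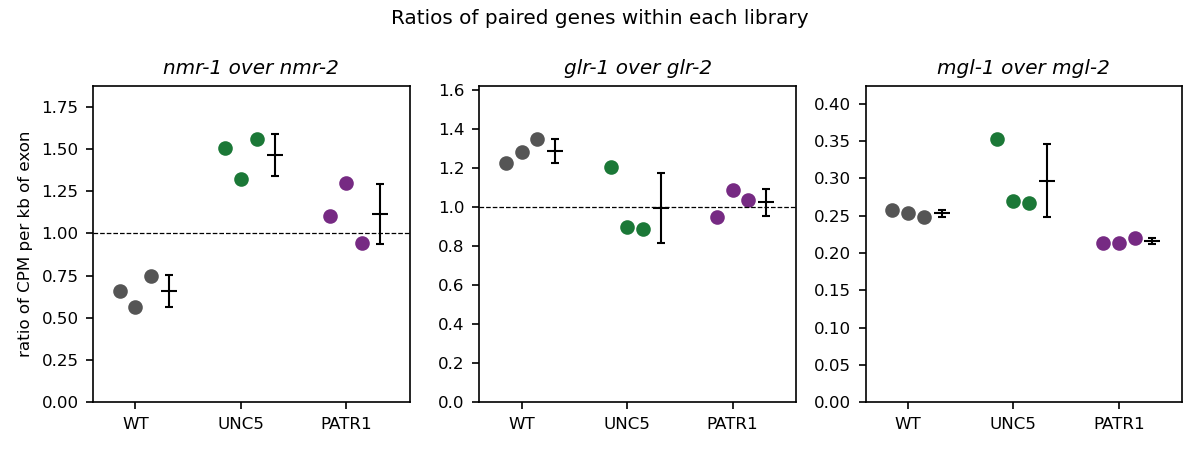
Ratio of CPM per kilobase of exon between paired genes in each library (dots), with the mean and SD of each group beside them; all axes are linear and start at 0, and the dashed line in the panels of nmr-1 to nmr-2 and glr-1 to glr-2 marks a ratio of 1. The nmr-1 to nmr-2 ratio lies between 0.566 and 0.751 in WT and between 1.32 and 1.56 in UNC5.

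Both metabotropic receptor genes among the members, mgl-1 and mgl-2, fell in both mutant groups. mgl-2 (WBGene00003233, chromosome I, 10383144 to 10391388, minus strand) measured 13.7, 14.3 and 13.98 CPM in WT, 9.12, 9.81 and 10.6 CPM in UNC5, and 10.3, 9.82 and 9.33 CPM in PATR1. Every mutant library was below every WT library, and the mutant groups overlapped. The fall was -0.51 ± 0.060 in UNC5 (adjusted p = 5.77e-09) and -0.51 ± 0.060 in PATR1 (adjusted p = 2.45e-09). Between the mutant groups the value was -0.01 (95% interval -0.14 to 0.13, adjusted p = 0.921).

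mgl-1 (WBGene00003232, chromosome X, 9968517 to 9976306, minus strand) measured 3.06, 3.11 and 3.00 CPM in WT, 2.78, 2.29 and 2.43 CPM in UNC5, and 1.90, 1.80 and 1.78 CPM in PATR1. The groups stood in 3 steps without overlap. It fell by 0.29 ± 0.10 on the log2 scale in UNC5 (adjusted p = 0.0103), a call that ended without UNC5 replicate 2 (-0.24, adjusted p = 0.0639), and to 59.8% of WT in PATR1 (-0.74 ± 0.11, adjusted p = 1.77e-07). PATR1 was lower than UNC5 (-0.45 ± 0.12, adjusted p = 0.00108), a call lost when scaled to pan-neuronal counts (-0.0276, adjusted p = 0.847). Of the exon bases of mgl-1, 105 are shared with the noncoding gene ZC506.8 on the same strand.

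Summed per length, mgl-1 and mgl-2 made up 26.0% to 26.4% of the level of all 10 genes in WT. Their share was 19.8% to 21.8% in UNC5 and 24.2% to 24.3% in PATR1. The glr-1 to glr-5 share was 47.5% to 49.8% in WT, 53.0% to 55.3% in UNC5 and 49.8% to 51.9% in PATR1. eat-4 held 18.1% to 20.98% and the NMDA receptor genes 4.76% to 6.31% over all 9 libraries, with the groups overlapping.

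Between the mutant groups, 8 of the 10 members were lower in PATR1 than in UNC5, none was higher, and mgl-2 and nmr-2 did not pass. Scaled to pan-neuronal counts, 1 was lower and 2 were higher. Of all genes 40.9% were lower and 37.8% higher, 78.7% in all. No member passed 2-fold, beside 20.9% of all genes, 9.46% upward and 11.5% downward. By DESeq2 7 were lower and none higher, and at an unadjusted p below 0.05 both tools gave 8 and 0. The libraries did not overlap for 8 members, all lower in PATR1, beside 79.5% of all genes, 38.3% higher and 41.3% lower.

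The members were set beside a list of neuronal genes, called pan-neuronal here, with neuropeptide granule genes among them. Of 22 pan-neuronal genes, 12 rose, 3 fell and 7 did not pass in UNC5 (median 0.11), and 2 rose, 18 fell and 2 did not pass in PATR1 (median -0.61). Of all genes, 49.8% rose and 27% fell in UNC5, and 38.7% rose and 44.9% fell in PATR1. In PATR1 the neuropeptide granule gene ida-1 fell from 94.1 ± 2.05 to 53.7 ± 2.18 CPM and the complexin gene cpx-1 from 17.5 ± 0.589 to 7.61 ± 0.848 CPM, while maco-1 rose from 121 ± 2.82 to 192 ± 4.03 CPM. Summed, the pan-neuronal genes stood at 1243 to 1300 CPM in WT, 1390 to 1418 CPM in UNC5 and 1048 to 1052 CPM in PATR1.

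When libraries were scaled to these summed pan-neuronal counts, 6 members were lower and 1 higher in UNC5 than in WT (median -0.30), and 7 were lower and 2 higher in PATR1 (median -0.23). Of all 17512 genes on that scale, 6195 were lower and 6260 higher in UNC5 (median 0.01), and 5444 lower and 8431 higher in PATR1 (median 0.17). On that scale nmr-2 changed by -0.76 ± 0.15 (adjusted p = 3.02e-05) and nmr-1 by 0.40 ± 0.15 (adjusted p = 0.016) in UNC5. A change of scaling moves all genes of a comparison by nearly the same amount, here upward in PATR1 against WT. The median of all genes went from -0.11 under TMM factors to 0.17. The 7 members lower in PATR1 were all nearer to WT than under TMM factors, which follows from that common shift. glr-3 stood at -0.83 ± 0.21, mgl-1 at -0.47 ± 0.11, glr-1 at -0.46 ± 0.10 and nmr-2 at -0.38 ± 0.15. eat-4 moved from -0.49 to -0.21 ± 0.077, mgl-2 from -0.51 to -0.24 ± 0.061 and glr-5 from -0.45 to -0.17 ± 0.079. In PATR1 glr-4 (0.19 ± 0.069) and nmr-1 (0.34 ± 0.16) were higher. Between the mutant groups this scaling left glr-3 lower in PATR1 (-0.52 ± 0.23), put mgl-2 (0.42 ± 0.067) and nmr-2 (0.37 ± 0.17) higher, and the other 7 did not pass. The sum weighs abundant genes most, so scaling to it need not hold the typical pan-neuronal gene level. Under TMM factors the median in PATR1 against WT was -0.61 for the pan-neuronal genes and -0.50 for the members.

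Markers of other tissues moved as well, where 76.8% of all genes passed in UNC5 and 83.6% in PATR1. Summed sperm markers stood at 549 to 581 CPM in WT, 118.7 to 123.8 CPM in UNC5 and 405 to 409 CPM in PATR1, with 10 of 10 lower in UNC5 and 9 of 10 in PATR1. Germline and oocyte markers stood at 3557 to 3706, 4072 to 4146 and 6032 to 6260 CPM, with 6 of 10 higher and 2 lower in UNC5 and 10 of 10 higher in PATR1. Pharyngeal muscle markers stood at 644 to 674, 370.3 to 374.8 and 281.8 to 296.5 CPM, with 5 of 6 lower in UNC5 and 6 of 6 in PATR1. Body wall muscle markers stood at 8971 to 9467, 9400 to 9630 and 6471 to 6731 CPM, with 6 of 8 higher and 2 lower in UNC5 and 8 of 8 lower in PATR1. Hypodermis markers stood at 2631 to 2709, 3309 to 3558 and 2115 to 2136 CPM, with 4 of 6 higher and 2 lower in UNC5 (log2 fold changes from -1.43 to 1.30) and 5 of 6 lower in PATR1. Intestine markers stood at 2156 to 2286, 2037 to 2127 and 1465 to 1553 CPM, with 4 of 6 lower and 1 higher in UNC5 and 6 of 6 lower in PATR1. Glia markers stood at 133.9 to 146.5, 124.7 to 128.7 and 94.9 to 99.8 CPM. Of the 4 glia markers tested, 2 were higher and 1 lower in UNC5, where the median of 0.13 and the sum differ in direction, and all 4 were lower in PATR1. The part of these shifts in the values of the glutamate genes was not tested.

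Other genes of glutamate signalling were listed by role. The counts for each list stand beside those of all genes. Of all genes, 49.8% rose and 27% fell in UNC5, and 38.7% rose and 44.9% fell in PATR1. All 6 subunits of the inhibitory glutamate-gated chloride channels were tested, and 5 fell and 1 did not pass in each mutant group (median -0.26 in UNC5, -0.58 in PATR1). avr-15, whose channel acts in the pharynx, went from 14.3 ± 0.584 CPM in WT to 11.7 ± 0.766 in UNC5 and 9.01 ± 0.319 in PATR1, and glc-4 from 6.46 ± 0.132 to 3.40 ± 0.191 CPM in PATR1. glc-1 fell in UNC5 from 19.7 ± 0.362 to 16.5 ± 0.475 CPM. Of the receptor homologs glr-6, glr-7, glr-8 and mgl-3, 1 rose and 3 did not pass in UNC5, and 2 fell and 2 did not pass in PATR1. The latter were glr-6 (16.1 ± 0.327 to 12.7 ± 0.853 CPM) and mgl-3 (2.87 ± 0.0320 to 1.96 ± 0.273 CPM). The rise of glr-8 in UNC5 (0.702 ± 0.0517 to 0.953 ± 0.119 CPM, adjusted p = 0.0318) did not pass with relative log expression factors, by DESeq2 or without any single one of 4 libraries (UNC5 replicate 1 or 2, WT replicate 1 or 2).

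The glt genes encode transporters that clear glutamate from around cells. In UNC5, 2 of 6 rose, 1 fell and 3 did not pass (median 0.06), and in PATR1, 1 rose and 5 fell (median -0.81). Over all genes, 49.8% rose and 27% fell in UNC5 (median 0.16), and 38.7% rose and 44.9% fell in PATR1 (median -0.11). glt-1 rose from 147 ± 1.18 CPM in WT to 188 ± 2.97 in UNC5 and 193 ± 5.75 in PATR1. glt-5 fell from 8.68 ± 0.696 CPM to 6.05 ± 0.796 in UNC5 and 4.62 ± 0.222 in PATR1, and glt-3 fell in PATR1 from 9.98 ± 0.320 to 5.56 ± 0.319 CPM. Both homologs of the vesicular transporter, vglu-2 and vglu-3, rose in UNC5 and fell in PATR1, vglu-3 from 8.76 ± 0.562 CPM in WT to 11.1 ± 0.572 and 5.03 ± 0.208 CPM.

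Among 17 genes that assist, move or degrade receptors, 9 rose, 4 fell and 4 did not pass in UNC5 (median 0.16). PATR1 had 7 higher, 6 lower and 4 that did not pass (median -0.04). Over all genes, 49.8% rose and 27% fell in UNC5 (median 0.16), and 38.7% rose and 44.9% fell in PATR1 (median -0.11). usp-46, a deubiquitinase that spares GLR-1 from degradation, rose from 32.1 ± 1.75 CPM to 48.1 ± 2.23 in UNC5 and 54.6 ± 1.18 in PATR1. Its partner wdr-48 rose in PATR1 from 42.9 ± 1.57 to 67.0 ± 0.150 CPM. kel-8, which promotes turnover of GLR-1, fell from 38.1 ± 1.08 CPM to 24.5 ± 0.547 in UNC5 and 21.1 ± 0.568 in PATR1. rab-10 rose in UNC5 from 55.9 ± 0.229 to 76.6 ± 2.26 CPM. The genes named are those with the smallest adjusted p and do not stand for all 17. Turnover of GLR-1 was not measured, and its direction cannot be read from them. These genes are also active outside neurons, and whole-worm values do not separate the tissues.

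All 12 genes of glutamate metabolism passed in both comparisons with WT, 4 higher and 8 lower in each (median -0.26 in UNC5, -0.36 in PATR1). Of all genes, 76.8% passed in UNC5 and 83.6% in PATR1. The glutamine synthetase genes, which convert glutamate to glutamine, went both ways. gln-5 rose from 61.4 ± 1.24 CPM to 140.0 ± 3.02 in UNC5 and 159 ± 1.62 in PATR1, and gln-6 from 179.7 ± 7.14 to 342 ± 2.80 and 393 ± 7.27. gln-2 fell in UNC5 from 47.9 ± 1.95 to 8.80 ± 0.529 CPM, and gln-3 fell in PATR1 from 262 ± 7.59 to 96.1 ± 0.795 CPM.

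Of 15 transcription factor genes that set the identity of neurons using or receiving glutamate, 14 were tested. In UNC5, 3 rose, 3 fell and 8 did not pass (median 0.00). PATR1 had 11 lower, none higher and 3 that did not pass (median -0.50). Over all genes, 49.8% rose and 27% fell in UNC5 (median 0.16), and 38.7% rose and 44.9% fell in PATR1 (median -0.11). cfi-1, an ARID factor, fell in PATR1 from 9.96 ± 0.138 to 4.83 ± 0.680 CPM, and the homeobox gene ceh-14 from 11.2 ± 0.828 to 8.09 ± 0.289 CPM. unc-86, a POU homeobox gene, rose in UNC5 from 3.17 ± 0.470 to 4.26 ± 0.341 CPM.

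**Figure D4:**
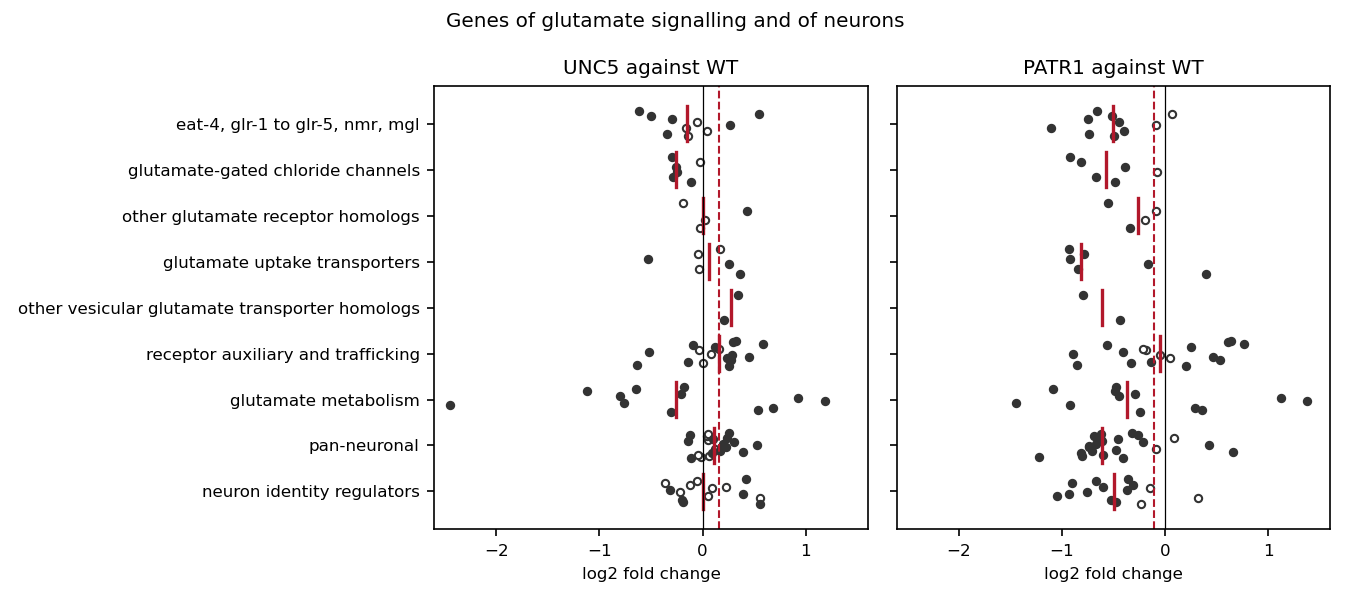
Log2 fold change of each tested gene (dots, filled where the adjusted p was below 0.05) in 9 lists of genes of glutamate signalling and of neurons, for UNC5 and PATR1 against WT, with the list's median as a solid bar and the median of all genes as a dashed line. In PATR1 the medians of all lists but receptor auxiliary and trafficking (-0.04) lie left of the dashed line, from -0.26 to -0.81.

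The genes with profiles most like those of the members that changed most were sought among 8042 named genes averaging 1 CPM or more. Likeness was the root mean square difference of mean-centred log2 CPM (plus 0.1) over the 9 libraries. The added 0.1 narrows the changes of a gene as scarce as glr-3. The closest of 8042 candidates lie below the median by construction. For nmr-2, which had the largest change in UNC5, these were gem-1 (0.115), zipt-17 (0.12) and ver-4 (0.126), where the median candidate stood at 0.461. For glr-3, which had the largest change in PATR1, they were aat-6 (0.0579), lips-5 (0.0584) and nas-4 (0.0637), where the median stood at 0.508. aat-6 measured 23.9, 20.7 and 12.2 CPM on average in WT, UNC5 and PATR1.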

How the data were processed

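Raw read counts per gene were deposited by the authors for each library, without strand and for each strand. Per the submitters' processing notes, FastQC 0.11.9, cutadapt 3.5 and STAR 2.7.11b were used with WBcel235, and per the design text the reference was WS288. Counts of the reverse strand entered the tests, since their library totals exceeded the forward ones by 41.9 to 57.1 times. Symbols, positions and exon lengths came from the Ensembl annotation of WBcel235, which lacks 8 of the 46926 identifiers. 1 symbol of the wider lists matched no gene.

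Genes were kept by filterByExpr (17512), scaled with TMM factors (0.954 to 1.04) and tested in a robust quasi-likelihood model of edgeR 4.0.16 (R 4.3.3) over all 9 libraries, with genotype as the only term. P-values were adjusted by Benjamini-Hochberg over all genes of a comparison, and a gene is called changed at an adjusted p below 0.05. Means are ± SD over 3 libraries, log2 fold changes ± SE, the SE being the fold change over the root of its F statistic. With 3 libraries a group, a two-sided exact permutation p cannot fall under 0.1, so none is given per gene. The fit was tested on simulated data. DESeq2 1.42.0 and other settings were alternatives. Between pairs of replicates the median squared difference, as a chi-square, was 1.44 to 2.22 times that of counting error. This does not tell separate cultures from repeated preparations of the same RNA.

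All 10 members are named, and of each wider list up to 3 genes with the smallest adjusted p. The members and lists were chosen with earlier results of these data known. Python 3.11.15, numpy 2.4.6, pandas 2.3.3 and matplotlib 3.10.9 were used for tables and plots. No sequences are shown, as no genome or protein sequence was used here.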

Additional observations from a re-analysis of the deposited data

Results flagged for a closer look

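Reads on the strand opposite to a gene were not part of the comparisons. Opposite to nmr-2, all 3 PATR1 libraries exceeded all 3 WT libraries, with a mean of 0.749 ± 0.137 CPM (40, 25 and 37 counts) beside 0.392 ± 0.159 CPM in WT (20, 16 and 36 counts). The mean in UNC5 lay between them, at 0.519 ± 0.269 CPM (11, 19 and 37 counts). nmr-2 shares 60 exon bases with hrde-2 on the opposite strand. Opposite to mgl-2, all 3 UNC5 libraries exceeded WT, with a mean of 0.142 ± 0.0289 CPM (5, 5 and 8 counts) beside 0.0276 ± 0.0195 CPM (1, 3 and 1 counts). Neither difference was tested.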

How the results depend on the processing

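Of 522 values for the members under all alternatives, 470 kept their direction and their side of the threshold. That total includes fits without a library of the group not compared, which hardly move a value and raise the number kept. The count of members higher in UNC5 than in WT fell from 2 to 1 by DESeq2, without the low-count filter, with only the 6 libraries compared, when scaled to pan-neuronal counts and with at least 5 CPM in 3 libraries. That filter leaves only 4 members to test, of which 2 were lower in UNC5, 4 lower in PATR1, 3 lower in PATR1 than in UNC5, and 0 past 2-fold in PATR1. Scaled to pan-neuronal counts, 2 members were higher in PATR1 than in WT, 2 higher and 1 lower than in UNC5, 0 past 2-fold in PATR1, and 10106 of all genes were higher and 3587 lower in PATR1 than in UNC5. With library sizes alone, 1 member (glr-3) passed 2-fold between the mutant groups.

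Some signs turned. For glr-2 in UNC5 the value was -0.0607 with relative log expression factors, -0.0624 by DESeq2, -0.0109 with library sizes alone, -0.10 scaled to pan-neuronal counts, -0.13 without the filter, -0.11 with only the 6 libraries compared and -0.0215 without WT replicate 3. For nmr-1 in PATR1 it was -0.0533 with library sizes alone, and for glr-4 in PATR1 0.19 scaled to pan-neuronal counts. Between the mutant groups, mgl-2 stood at 0.0416 with relative log expression factors, 0.0433 by DESeq2, 0.14 without the filter, 0.42 scaled to pan-neuronal counts, 0.0523 without UNC5 replicate 3, -0.0561 without UNC5 replicate 1 and 0.0367 without PATR1 replicate 3. nmr-2 stood there at 0.0030, 0.37 (scaled to pan-neuronal counts), 0.10 (no filter), 0.0626 (without UNC5 replicate 1), -0.17 (without UNC5 replicate 3) and 0.0425 (without PATR1 replicate 2), the first with relative log expression factors. Scaled to pan-neuronal counts, the difference between the mutant groups also turned, called differences of eat-4, glr-1, glr-4 and glr-5 included, for eat-4 (0.076), glr-1 (0.0282), glr-4 (0.0773), glr-5 (0.0237), glr-6 (0.11), avr-14 (0.0536), avr-15 (0.0447), glt-4 (0.0056), itx-1 (0.23), klp-4 (0.0842), mgl-3 (0.0599) and myo-1 (0.0228). A change of scaling moves all genes of a comparison by nearly the same amount. Here the median of all genes went from -0.04 to 0.38, eat-4 from -0.35 to 0.076 and mgl-2 from -0.0075 to 0.42. These turns therefore follow from the lower pan-neuronal sum in PATR1 and are not separate results for each gene. The cause of the lower sum, and of the other turns of sign, was not tested.

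Leaving out each library in turn gave 3 to 5 members lower and 2 higher in UNC5, 8 lower and 0 higher in PATR1, and 7 or 8 lower and 0 higher between the mutant groups. Replicate numbers did not pair the libraries: deviations from the group means correlated at -0.102 to 0.10 between libraries of the same number and at -0.0876 to 0.102 between others. With the replicate block the counts of members were the same as without it, 2 higher and 4 lower in UNC5 and 8 lower in PATR1, and 8739 of all genes rose in UNC5. Without it 8727 did. Depth limits glr-3, nmr-1 and nmr-2, with 16 to 115 counts per library.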

Other observations

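Reads opposite to eat-4 stood at 3.02 ± 0.331 CPM in WT (201, 172 and 175 counts), 1.48 ± 0.251 CPM in UNC5 (52, 55 and 81 counts) and 2.83 ± 0.105 CPM in PATR1 (120, 113 and 152 counts). The UNC5 libraries lay below all others. The exons of eat-4 share 79 bases with ZK512.2 and 40 bases with ZK512.7, both on the opposite strand. This value was chosen after it was seen and was not tested.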
